A study of Mus musculus with 4 samples.

Results

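PD-1 (encoded by Pdcd1), its ligands PD-L1 (Cd274) and PD-L2 (Pdcd1lg2), and the B7 costimulators CD80 (Cd80) and CD86 (Cd86) were followed in mouse myeloid cells in which Pdcd1 was targeted. These 5 of the 24706 genes were found by their gene symbols, each of which occurred in 1 row. The data are 4 RNA-seq libraries labelled as myeloid cells, 2 of PD-1f/f genotype (the wild-type group of the labels, called controls below) and 2 of PD-1f/f; LysM-Cre genotype (the conditional knockout group, called LysM-Cre libraries). By the genotypes in the study's results, all 4 carry the floxed Pdcd1 allele, in which LoxP sites flank an exon that is not numbered. Cre is expressed from the LysM locus (Lyz2), which is active in myeloid cells. The results describe CD11b+ cells sorted from the liver at postnatal day 3, whereas the methods describe RNA of livers at postnatal day 2, name wild-type mice as controls and mention no sorting. Nothing states whether the libraries came from separate mice or from pools, so p-values measure only the spread between these samples, which may be technical.

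PD-1 is an inhibitory receptor of the CD28 family that is best known on activated T cells and is also found on monocytes, macrophages and myeloid progenitors. When PD-L1 or PD-L2 on a neighbouring cell binds it, the phosphatase SHP-2 is recruited to its cytoplasmic tail and dampens activating signals. CD80 and CD86, made mainly by macrophages, dendritic cells and B cells, bind CD28 to costimulate T cells and CTLA-4 to inhibit them, and CD80 also binds PD-L1 on the same cell.

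Values were FPKM (fragments divided by gene length and library depth), so that levels of different genes can be compared. The libraries held 17691505 to 22212407 counted reads. The library of control replicate 2 stood apart from the other 3 in sex-linked transcripts, with 24.9 FPKM of the Y-linked gene Ddx3y against at most 0.00866 and with 0.0119 FPKM of Xist against 4.91 to 7.98. Of the myeloid markers, Itgam (CD11b) had 51.4 and 54.3 FPKM in the controls and 48.5 and 49.5 in LysM-Cre libraries. Lyz2, the gene at the Cre locus, had 31310 and 32150 FPKM in the controls and 10420 and 8127 in LysM-Cre libraries (log2 fold change -1.79, adjusted p = 0.183, limma), and the log2 fold change lay between -1.97 and -1.61 with each library left out and was -1.89 under median-of-ratios scaling. Voom on recovered reads gave -1.78 (adjusted p = 0.0177), a call by both thresholds given below, whereas quantile normalization, which by construction equalizes the values of genes at the same rank, gave -0.19. Transcripts of erythroid, B cell and hepatocyte marker genes were also present.

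Cd274, Pdcd1lg2, Cd80 and Cd86 had their highest levels in the same library, LysM-Cre replicate 2, and Pdcd1 did not. Whether promoter sequence has a part in this was not tested. The sequences just upstream of the start sites are shown for all of these genes but Cd86, for which RefSeq held none. They are the 250 bases before the RefSeq start in GRCm38.p6, written 5′ to 3′ on the strand of the gene, and capitals mark matches to any of 4 motifs searched on both strands. The Pdcd1 sequence is chr1:94052554-94052803 (minus strand), that of Cd274 is chr19:29367188-29367437, that of Pdcd1lg2 is chr19:29410669-29410918 and that of Cd80 is chr16:38458683-38458932 (all 3 plus strand).
Pdcd1: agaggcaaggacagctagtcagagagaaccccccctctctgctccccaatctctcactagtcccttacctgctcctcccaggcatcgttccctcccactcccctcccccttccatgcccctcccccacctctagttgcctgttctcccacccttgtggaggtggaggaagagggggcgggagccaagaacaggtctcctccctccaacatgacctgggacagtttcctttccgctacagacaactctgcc
Cd274: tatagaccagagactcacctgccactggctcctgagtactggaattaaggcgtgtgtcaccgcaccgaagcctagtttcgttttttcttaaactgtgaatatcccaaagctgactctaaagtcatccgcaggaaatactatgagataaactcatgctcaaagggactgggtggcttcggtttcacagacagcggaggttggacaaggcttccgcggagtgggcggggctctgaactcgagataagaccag
Pdcd1lg2: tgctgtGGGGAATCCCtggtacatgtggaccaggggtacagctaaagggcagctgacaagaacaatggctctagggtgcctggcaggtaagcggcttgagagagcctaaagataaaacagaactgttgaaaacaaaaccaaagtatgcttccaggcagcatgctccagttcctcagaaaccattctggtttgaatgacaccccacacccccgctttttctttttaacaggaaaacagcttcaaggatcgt
Cd80: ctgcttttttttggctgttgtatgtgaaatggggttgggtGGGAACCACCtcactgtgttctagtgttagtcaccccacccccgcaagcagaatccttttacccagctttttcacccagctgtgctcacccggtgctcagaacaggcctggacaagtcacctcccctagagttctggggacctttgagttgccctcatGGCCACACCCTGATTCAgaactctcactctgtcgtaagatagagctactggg
The motifs were GGGNNNNNCC (NF-κB sites), TTCNNNGAA (STAT sites), GAAANNGAAA (interferon response elements) and TGANTCA (AP-1 sites), which 45.8%, 7.02%, 2.98% and 6.75% of 32851 mouse promoter sequences of this length hold. Pdcd1lg2 had 1 match, GGGGAATCCC, which begins 244 bases before the start. Cd80 had matches at 210 and 52 bases before the start to the NF-κB motif (GGGAACCACC and GGCCACACCC), and the latter is followed directly by an AP-1 match, TGATTCA. The windows of Pdcd1 and Cd274 held no match to these motifs, and the GC content was 60.4% for Pdcd1, 50.4% for Cd274, 48.4% for Pdcd1lg2 and 52.8% for Cd80. A match describes the sequence and is not a measured binding site.

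Within the controls, Pdcd1 was the most abundant of the 5 transcripts and Cd86 came next. In replicate 1 the levels were 28.5 FPKM for Pdcd1, 13.1 for Cd86, 3.29 for Cd274 and 2.197 for Cd80, and Pdcd1lg2 had no read. In replicate 2 they were 34.7 for Pdcd1, 9.24 for Cd86, 2.56 for Cd80, 0.293 for Cd274 and 0.0969 for Pdcd1lg2. Cd274 and Cd80 thus changed places between replicates of one group. The LysM-Cre replicate 1 library kept Pdcd1 (17.1 FPKM) above Cd86 (11.3), Cd274 (4.18), Cd80 (3.36) and Pdcd1lg2 (0.130). In LysM-Cre replicate 2 the order was Cd86 (28.4 FPKM), Cd274 (22.9), Pdcd1 (21.4), Cd80 (8.04) and Pdcd1lg2 (1.24). The 95% counting intervals of Cd274 (21.7 to 24.1) and Pdcd1 (19.9 to 23.0) overlapped there, and such intervals (exact Poisson) cover counting error only.

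**Figure D1:**
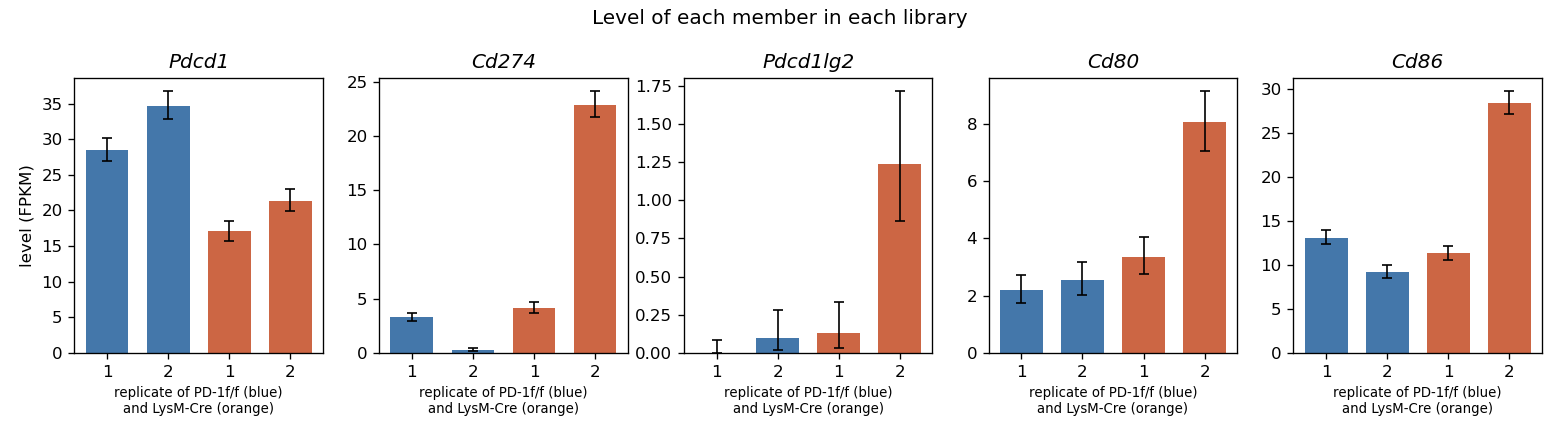
FPKM (vertical axes, each with its own range) of Pdcd1, Cd274, Pdcd1lg2, Cd80 and Cd86 in each library, with PD-1f/f replicates 1 and 2 in blue and LysM-Cre replicates 1 and 2 in orange; error bars are 95% exact Poisson intervals of the reads, or the limit of 3 reads (0.0821 FPKM) for Pdcd1lg2 in PD-1f/f replicate 1. Pdcd1 was lower in both LysM-Cre libraries (17.1 and 21.4) than in both PD-1f/f libraries (28.5 and 34.7), and the other 4 genes had their highest value in LysM-Cre replicate 2.

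Pdcd1 (ENSMUSG00000026285, minus strand of chromosome 1, 94038305 to 94052553), the targeted receptor gene, had 28.5 and 34.7 FPKM in the controls (1221 and 1262 reads) and 17.1 and 21.4 FPKM in LysM-Cre libraries (618 and 730 reads). The groups did not overlap, and the 4 counting intervals ran from 26.9 to 30.1 and 32.9 to 36.7 in the controls and from 15.8 to 18.5 and 19.9 to 23.0 in LysM-Cre libraries. The group means were 31.6 ± 4.43 (SD, n = 2) and 19.2 ± 3.04 (SD, n = 2). The log2 fold change of FPKM + 1, LysM-Cre minus PD-1f/f, was -0.69 (95% interval -1.15 to -0.23, SE 0.19, unadjusted p = 0.0114, Benjamini-Hochberg adjusted p = 0.218, limma). It lay between -0.84 and -0.54 with each library left out in turn, and was -0.55 without control replicate 2. Among the 10779 tested genes (mean FPKM not below 1), Pdcd1 stood at percentiles 85.3 and 87.9 in the controls and 75.8 and 79.5 in LysM-Cre libraries. FPKM sum reads over the whole gene, so transcripts that lack the floxed exon still count, and the values do not measure that exon. In bulk libraries, fewer cells that express a gene and less of its RNA per cell cannot be told apart.

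Some markers of T and B cells, which can express PD-1, were lower in LysM-Cre libraries and others were not. Of 9 T cell markers 8 were in the files and 2 were tested. These 2 had both LysM-Cre libraries below both controls, as had 18.0% of all tested genes. Cd3d, a T cell receptor chain partner, had 6.50 and 7.55 against 4.62 and 3.15 FPKM, and Trbc2, a T cell receptor constant segment, had 5.34 and 5.14 against 1.70 and 2.21 FPKM. The summed T cell list was 12.7 and 13.3 FPKM in the controls and 6.66 and 6.23 in LysM-Cre libraries. Cd3e (at most 0.0523 FPKM) and Trac (at most 0.121) were at or near 0, however. Of other low T cell markers, Cd4 had 0.268 and 0.2635 against 0 and 0 FPKM, whereas Cd5 had 0.0653 and 0.180 against 0.103 and 0.437. Summed B cell markers were 53.7 and 68.1 against 34.6 and 44.4 FPKM. Of 6 tested B cell markers 5 had both LysM-Cre libraries below both controls, beside 18.0% of all tested genes. The other, Ebf1, had 1.09 and 1.14 against 1.03 and 1.19 FPKM. Pax5, below the minimum for the test, had 0.132 and 0.390 against 0.229 and 0.326 FPKM. Summed NK cell markers were 63.5 and 40.6 against 33.3 and 29.9 FPKM, mostly Gzma (44.0 and 26.5 against 10.5 and 15.7), whereas Nkg7 had 15.7 and 10.8 against 21.8 and 11.8 FPKM. Of 6 erythroid markers, with sums of 3350 and 2267 against 1374 and 1457 FPKM, 6 were lower in both LysM-Cre libraries (18.0% of all genes). Summed hepatocyte markers were 55.0 and 86.1 against 32.8 and 40.9 FPKM. The 6 myeloid markers summed to 31720 and 32610 against 10820 and 8568 FPKM, nearly all from Lyz2, the gene at the Cre locus. Of the others, Itgam had 51.4 and 54.3 against 48.5 and 49.5 FPKM, and Ptprc had 61.7 and 58.1 against 60.5 and 75.1. Csf1r had 40.9 and 33.0 against 45.6 and 113 FPKM. Fcgr3 had 62.7 and 173 against 129 and 51.5 FPKM, and Tyrobp had 195 and 140 against 115 and 152. The part of these cells in the Pdcd1 difference was not tested.

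Cd274 (ENSMUSG00000016496, plus strand of chromosome 19, 29367455 to 29388095), which encodes the widely expressed ligand PD-L1, had 3.29 and 0.293 FPKM in the controls (265 and 20 reads) and 4.18 and 22.9 FPKM in LysM-Cre libraries (284 and 1467 reads). Both LysM-Cre libraries were above both controls, but control replicate 1 and LysM-Cre replicate 1 lay close together, with counting intervals of 2.91 to 3.72 and 3.71 to 4.70. The group means were 1.79 ± 2.12 (SD, n = 2) and 13.5 ± 13.2 (SD, n = 2), so that the spread within the LysM-Cre group was as large as its mean. The log2 fold change was 2.24 (95% interval 0.10 to 4.38, SE 0.86, unadjusted p = 0.0428, adjusted p = 0.288, limma). It was 1.37 without control replicate 2 and 1.14 without LysM-Cre replicate 2, and 3.11 and 3.34 without the other replicate of each group. The percentile of Cd274 among tested genes was 36.2 and 0.891 in the controls and 39.9 and 80.7 in LysM-Cre libraries.

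Pdcd1lg2 (ENSMUSG00000016498, plus strand of chromosome 19, 29410919 to 29471157), which encodes PD-L2, a ligand largely restricted to macrophages and dendritic cells, was scarcely detected. Control replicate 1 had 0 reads, with a 95% counting interval up to 0.101 FPKM and a limit of 3 reads at 0.0821 FPKM. Control replicate 2 had 0.0969 FPKM (3 reads). The LysM-Cre libraries had 0.130 FPKM (4 reads) and 1.24 FPKM (36 reads). Only LysM-Cre replicate 2 lay above the counting intervals of the other libraries (0.01998 to 0.283 and 0.0354 to 0.332, against its own 0.866 to 1.71). Summed over the groups, there were 3 and 40 reads, a ratio per counted read of 15.02 (95% counting interval 4.78 to 75.9), and without LysM-Cre replicate 2 there were 3 and 4 reads, a ratio of 2.92 (0.494 to 19.9). Its mean of 0.366 FPKM was below the minimum for the test, and over all genes without a minimum its log2 fold change was 0.60 (95% interval -0.35 to 1.56, adjusted p = 0.674, limma). That value was 0.11 without LysM-Cre replicate 2, 0.67 without control replicate 2 and 1.98 with a pseudocount of 0.1 in place of 1.

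Cd80 (ENSMUSG00000075122, plus strand of chromosome 16, 38458933 to 38486933) encodes the B7 costimulator with the higher affinity for CTLA-4. It had 2.197 and 2.56 FPKM in the controls (83 and 82 reads) and 3.36 and 8.04 FPKM in LysM-Cre libraries (107 and 242 reads). The groups did not overlap, although the counting intervals of control replicate 2 (2.04 to 3.18) and LysM-Cre replicate 1 (2.75 to 4.06) did. The means were 2.38 ± 0.258 and 5.70 ± 3.31 FPKM (SD, n = 2 each), and the log2 fold change was 0.90 (95% interval -0.01 to 1.80, SE 0.36, unadjusted p = 0.0526, adjusted p = 0.308, limma). It was 0.37 without LysM-Cre replicate 2, 1.42 without LysM-Cre replicate 1 and 0.97 without control replicate 2. The read numbers of Cd80 and Pdcd1lg2 are the smallest that give whole reads, since their deposited values did not match the annotated lengths.

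Cd86 (ENSMUSG00000022901, minus strand of chromosome 16, 36603869 to 36666081), the costimulator that antigen-presenting cells carry before activation, had 13.1 and 9.24 FPKM in the controls (1066 and 637 reads) and 11.3 and 28.4 FPKM in LysM-Cre libraries (776 and 1839 reads). The groups overlapped, with LysM-Cre replicate 1 between the controls. The means were 11.2 ± 2.73 and 19.9 ± 12.1 FPKM (SD, n = 2 each), and the log2 fold change was 0.66 (95% interval -0.40 to 1.72, SE 0.43, unadjusted p = 0.175, adjusted p = 0.466, limma). It was 0.03 without LysM-Cre replicate 2, 1.29 without LysM-Cre replicate 1 and 0.43 without control replicate 2.

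**Figure D2:**
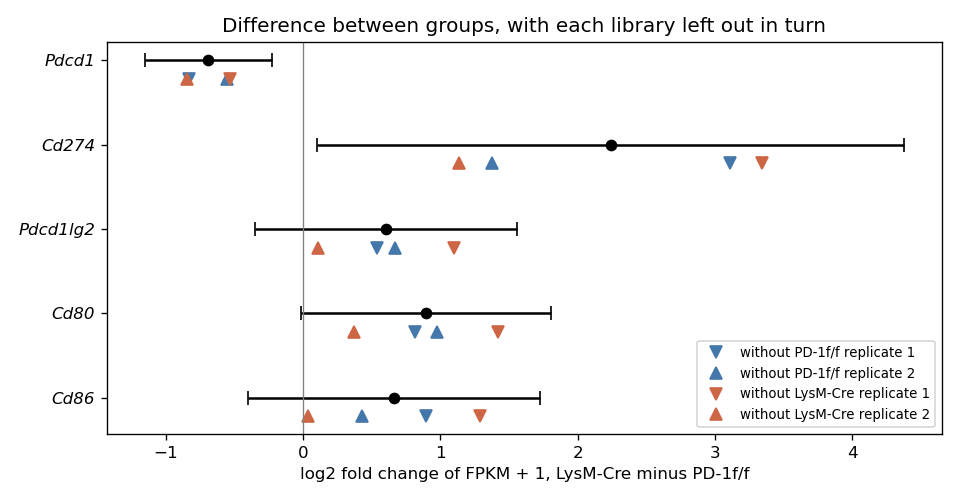
Log2 fold change of FPKM + 1, LysM-Cre minus PD-1f/f (horizontal axis), for each gene with all 4 libraries (black circles, with 95% limma intervals) and with each library left out in turn (triangles). Pdcd1 stayed between -0.84 and -0.54, Cd274 ranged from 1.14 to 3.34, and Pdcd1lg2, Cd80 and Cd86 came to 0.11, 0.37 and 0.03 without LysM-Cre replicate 2.

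Of the 5 genes, 4 reached a mean of 1 FPKM and were tested with all others. By the threshold of the study's methods (|log2FC| of at least 1 and adjusted p under 0.05), 0 of 4 were called, as were 0% of all 10779 genes. The limma fit gave 1768 genes at an unadjusted p under 0.05 and a smallest adjusted p of 0.129, and voom on recovered reads called 2 of 14203 genes (0.0141%), none of them among the 5. By the threshold of its results (|log2FC| above 1 and unadjusted p under 0.01), 0 of 4 were called, beside 1.88% of genes higher and 0.408% lower in LysM-Cre libraries. At an unadjusted p under 0.05, Cd274 was higher and Pdcd1 lower, beside 11.4% and 4.95% of all genes. The p of Cd274 was above 0.05 with median-of-ratios scaling, no trend, no filter or the replicate block, and without control replicate 2 or LysM-Cre replicate 2. That of Pdcd1 was above 0.05 without control replicate 2 or LysM-Cre replicate 1. Both LysM-Cre libraries lay above both controls for Cd274 and Cd80, as for 33.6% of genes, and below them for Pdcd1, as for 18.0%. With 2 libraries per group, such separation is therefore common among all genes here.

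Under quantile normalization the log2 fold changes were -0.79 for Pdcd1, 2.15 for Cd274, 0.76 for Cd80 and 0.55 for Cd86. The median of all tested genes was 0.09 on the log2 scale, and quantile normalization moved it to -0.02. Relative to that median, Pdcd1 was at -0.78 as deposited and -0.76 after quantile normalization, Cd274 at 2.15 and 2.17, Cd80 at 0.80 and 0.78, and Cd86 at 0.57 and 0.58.

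Ratios of FPKM within a library do not depend on scaling by a single factor per library, although quantile normalization can change them. Cd274 to Pdcd1, ligand to receptor, was 0.116 and 0.00845 in the controls and 0.245 and 1.07 in LysM-Cre libraries, a log2 difference of 4.03 that was 2.15 without control replicate 2. Cd274 to Cd86 was 0.251 and 0.0317 against 0.370 and 0.806, a log2 difference of 2.61 that was 1.12 without control replicate 2. Cd80 to Cd86, the pair of costimulators, was 0.168 and 0.277 against 0.297 and 0.283, a log2 difference of 0.43 that was 0.07 without control replicate 1. For each of these 3 ratios both LysM-Cre libraries were above both controls, and the exact two-sided permutation test gave p = 0.333, the smallest that 2 against 2 libraries allow. The ratios share genes, and how often other gene pairs separate in this way was not examined. For Cd80 to Cd86 the separation was 0.277 in control replicate 2 (82 Cd80 reads) against 0.283 in LysM-Cre replicate 2, too close to set the groups apart. Pdcd1lg2 to Cd274 was listed at 0 in control replicate 1, and was 0.330 in control replicate 2 and 0.0310 and 0.0540 in LysM-Cre libraries. The last 3 values rest on 3, 4 and 36 reads of Pdcd1lg2.

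The pattern of each tested gene over the 4 libraries was compared with that of all others, by the Euclidean distance of log2(FPKM + 1) values less their own mean. Among the 4 tested genes, Cd80 and Cd86 were nearest to each other (0.515), Cd274 was at 1.94 from Cd86 and 2.06 from Cd80, and Pdcd1 was farthest from Cd274 (3.52). Nearest to Pdcd1 were Nudt7 (0.0762), a peroxisomal hydrolase gene, Cd79a (0.104), a chain of the B cell receptor complex, and Fmc1 (0.118), an assembly factor gene of mitochondrial ATP synthase. Cd79a had 16.4 and 21.6 FPKM in the controls and 10.8 and 12.7 in LysM-Cre libraries. Nearest to Cd274 were the chemokine genes Ccl7 (0.122) and Ccl4 (0.363) and Ptgs2 (0.417), which encodes the prostaglandin synthase COX-2. Like Cd274, Ccl7 had its lowest level in control replicate 2 (listed at 0) and its highest in LysM-Cre replicate 2, with 2.30 FPKM in control replicate 1 and 2.86 and 19.0 in LysM-Cre libraries. Near to Cd80 were Ehd1 (0.0454), for endosomal recycling, and Slc11a1 (0.0783), a phagosomal metal transporter gene. Nearest to Cd86 were Ms4a6d (0.0399), a macrophage membrane protein gene, Iigp1 (0.0591), an interferon-induced GTPase gene, and Bhlhe40 (0.115), a transcription factor gene. With 4 libraries many genes can share a pattern, and these distances are a description.

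**Figure D3:**
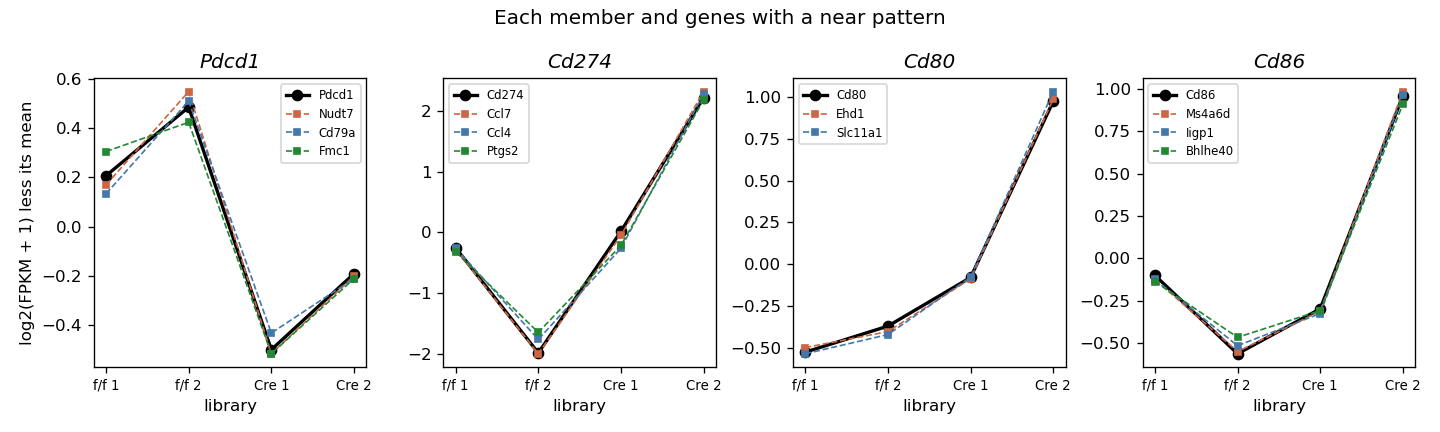
Log2(FPKM + 1) less its mean over the 4 libraries (vertical axes, each with its own range) for each tested gene (black) and the nearest genes named in the text (coloured), in PD-1f/f replicates 1 and 2 (f/f 1, f/f 2) and LysM-Cre replicates 1 and 2 (Cre 1, Cre 2); lines join points of a gene only. LysM-Cre replicate 2 is the highest point for Cd274, Cd80 and Cd86, and PD-1f/f replicate 2 is the highest for Pdcd1 and the lowest for Cd274 and Cd86.

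Markers of cells that carry these ligands were highest in LysM-Cre replicate 2 for 6 of 10 macrophage and 6 of 7 monocyte genes. The share of all tested genes that were highest in that library is not given here, so these counts have no background beside them. Csf1r, the receptor for macrophage colony-stimulating factor, had 40.9 and 33.0 FPKM in the controls and 45.6 and 113 in LysM-Cre libraries. The sum of 10 macrophage markers was 411 and 295 FPKM against 301 and 516, and that of 7 monocyte markers was 510 and 485 against 498 and 630. The macrophage genes C1qb (109 and 73.7 against 69.4 and 93.0 FPKM), Vsig4 (23.0 and 14.1 against 13.3 and 17.7), Timd4 (4.54 and 3.25 against 2.14 and 4.21) and Clec4f (38.5 and 24.0 against 22.6 and 33.7) were highest in control replicate 1. The monocyte gene Ly6c2 was lowest in LysM-Cre replicate 2 (343 and 360 against 333 and 315 FPKM). The sum of 9 dendritic cell markers was 3.26 and 4.52 against 3.98 and 5.69 FPKM, and only 1 of the 9 reached a mean of 1 FPKM. The sum of 8 neutrophil markers, almost all from S100a8, S100a9, Camp and Ltf, was 115000 and 90530 against 61810 and 54450 FPKM. At an unadjusted p under 0.05, 4 of the 8 were lower and 2 higher, beside 4.95% and 11.4% of all genes. The 2 higher were Elane (617 and 646 against 945 and 749 FPKM) and Cxcr2 (199 and 179 against 230 and 317 FPKM). The part of these cell types in the levels of Cd274, Cd80 and Cd86 was not tested.

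Cd274 and Pdcd1lg2 lie 22824 bp apart on chromosome 19, and genes annotated within 100 kb of any of the 5 were examined. There were 18 other such genes, of which 9 were tested, and 4 of these were higher and 0 lower in LysM-Cre libraries at an unadjusted p under 0.05, beside 11.4% and 4.95% of all genes. Plgrkt, a plasminogen receptor gene that begins 65 bp from Cd274 on the other strand, had 10.1 and 10.8 FPKM in the controls and 8.09 and 14.4 in LysM-Cre libraries (log2 fold change 0.05), so the low Cd274 level of control replicate 2 was not shared by it. Jak2, the interferon-γ receptor kinase gene 54375 bp away from Cd274, had 4.46 and 3.90 against 5.60 and 8.33 FPKM (0.60, adjusted p = 0.284, limma). Beside Cd80, Adprh had 81.9 and 77.6 against 102 and 100 FPKM, with a log2 fold change of 0.34, and Poglut1 (0.66) and Tmem39a (0.51) were also higher. The 3 genes near Pdcd1 (Gal3st2b, Gal3st2c and the pseudogene Gm7889) stayed below 0.21 FPKM in all libraries.

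The wider pathway was described with 7 lists of 79 genes that left out the 5 genes above. Of these 79, 78 were in the files and 50 were tested, and 13 were higher and 1 lower in LysM-Cre libraries at an unadjusted p under 0.05 (26.0% and 2.0%, beside 11.4% and 4.95% of all genes). With voom on recovered reads the total was 23 of 62, beside 2135 of all 14203 genes in that fit. With either control replicate left out, the total was lower than 14. Their median log2 fold change was 0.25, beside 0.09 over all tested genes, and 25 of 50 had both LysM-Cre libraries above both controls, beside 33.6% of all genes. By the threshold of the methods 0 were called and by that of the results 2, Irf1 and Cd200r1 (2.29% of all genes).

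The partner receptors of the costimulators were nearly absent. Cd28 had at most 0.139 FPKM in any library, and Ctla4 had reads only in LysM-Cre replicate 1 (0.115 FPKM, 5 reads). Icos, another CD28-family costimulatory receptor, had 0.131 to 0.279 FPKM. Btla, the remaining receptor listed and an inhibitory one, had 1.24 and 1.89 against 0.983 and 2.31 FPKM, and its log2 fold change of 0.01 turned negative under median-of-ratios scaling (-0.06). Rgmb, which encodes a partner of PD-L2, had 0 and 0.444 against 0 and 0.0215 FPKM. Among other B7-related genes, Vsir (the inhibitory B7-family molecule VISTA) had 101 and 115 against 127 and 99.9 FPKM, and Tnfrsf14, the partner of BTLA, varied more within groups (9.27 and 23.5 against 5.75 and 23.7) than between them.

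In the list of PD-1 signalling genes the median was 0.27. At an unadjusted p under 0.05, 4 of 12 tested were higher and 0 lower, beside 11.4% and 4.95% of all genes. Ptpn11, which encodes SHP-2, the phosphatase that PD-1 recruits, had 5.02 and 5.88 FPKM in the controls and 10.4 and 10.9 in LysM-Cre libraries. Its log2 fold change was 0.85 (SE 0.17, unadjusted p = 0.00268, adjusted p = 0.199, limma), and the groups did not overlap. Ptpn6, which encodes the related SHP-1, was far more abundant at 226 and 223 against 250 and 295 FPKM (0.28, adjusted p = 0.396). Vav1, an exchange factor gene downstream of antigen receptors, had 78.4 and 85.4 against 115 and 107 FPKM (0.43, adjusted p = 0.250).

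The list of PD-L1 regulators had the largest share of its tested genes higher among the 7 lists, and a median of 0.60. At an unadjusted p under 0.05, 7 of 15 were higher and 0 lower, beside 11.4% and 4.95% of all genes. Irf1, the transcription factor through which interferon-γ induces PD-L1, had 25.9 and 21.2 FPKM in the controls and 47.4 and 102 in LysM-Cre libraries. Its log2 fold change was 1.53 (SE 0.36, unadjusted p = 0.00653, adjusted p = 0.214, limma), and 0.99 without LysM-Cre replicate 2, which is below the fold threshold. Without control replicate 1 it was 1.67 and without control replicate 2 it was 1.39, and neither value passed the p threshold. Stat3, a cytokine-activated transcription factor gene, had 51.7 and 47.8 against 84.1 and 86.0 FPKM (0.76, adjusted p = 0.189). The interferon-γ receptor gene Ifngr1 had 121 and 112 against 158 and 204 FPKM (0.62, adjusted p = 0.222). Ifngr2, the other interferon-γ receptor gene of the list, had 44.1 and 40.8 against 38.1 and 47.35 FPKM (0.0019). Cmtm6, whose product keeps PD-L1 at the cell surface, had 243 and 262 against 278 and 274 FPKM (0.13, and -0.03 after quantile normalization).

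Of 10 tested regulators of Pdcd1 transcription, 1 was higher and 0 lower, beside 11.4% and 4.95% of all genes, with a median of 0.0031. Jun, an AP-1 subunit gene, had 72.2 and 71.4 FPKM in the controls and 118 and 149 in LysM-Cre libraries (log2 fold change 0.88, adjusted p = 0.199, limma). Its partner Fos was abundant in all libraries, at 1304 and 1028 against 1487 and 1447 FPKM (0.34). Of 9 costimulatory genes of the TNF family in the files 1 was tested, Tnfrsf18 (GITR), with 0.65 and 1.29 against 1.05 and 1.22 FPKM. Cd40, the receptor for T cell help, had 0.317 and 0.406 against 0.548 and 2.27 FPKM and was thus highest in LysM-Cre replicate 2, as the ligands were. Among other checkpoint genes 1 of 8 tested was higher and 1 lower, beside 11.4% and 4.95% of all genes. Cd200r1, an inhibitory receptor gene of myeloid cells, had 44.8 and 41.8 FPKM in the controls and 23.2 and 18.6 in LysM-Cre libraries, a log2 fold change of -1.02 (SE 0.17, unadjusted p = 0.00113, adjusted p = 0.183, limma) that was -0.97 without control replicate 1 and -0.87 without LysM-Cre replicate 2. The higher gene was Sirpa, the inhibitory receptor for CD47, with 91.3 and 104 against 145 and 151 FPKM (log2 fold change 0.60, SE 0.14, adjusted p = 0.213, limma). Its ligand gene Cd47 had 179 and 172 against 200 and 215 FPKM (0.24).

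**Figure D4:**
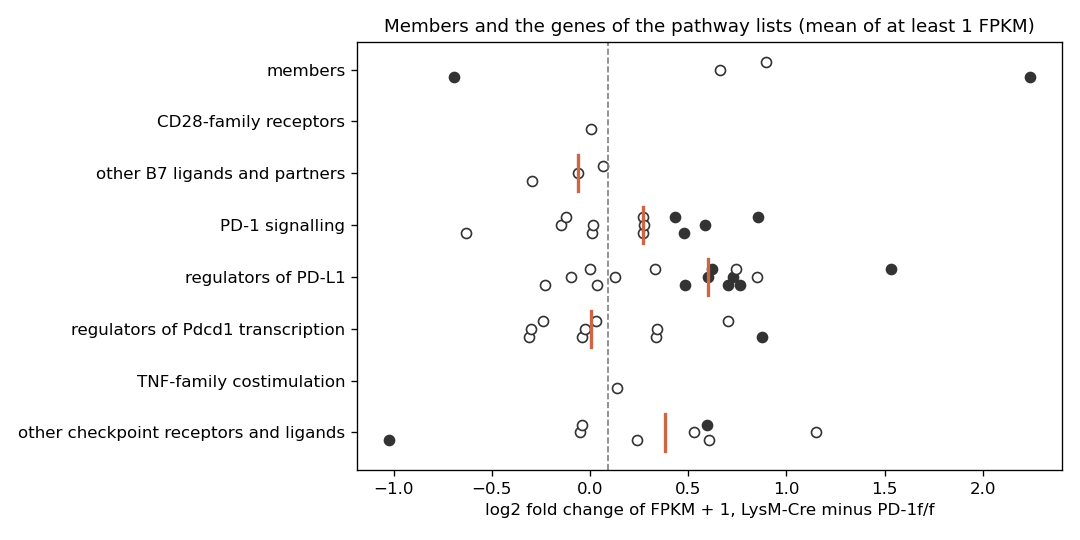
Log2 fold change of FPKM + 1, LysM-Cre minus PD-1f/f (horizontal axis), for the 4 tested genes of the PD-1 and B7 group (members) and the 50 tested genes of the 7 pathway lists; filled circles have an unadjusted p under 0.05, orange bars are medians of lists with over 2 tested genes, and the dashed line is the median of all tested genes (0.09). The list of PD-L1 regulators has its median at 0.60 and that of Pdcd1 regulators at 0.0031.

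The deposited gene ontology annotation gives 4 of the 5 genes (all but Pdcd1) the term positive regulation of T cell proliferation, which 58 genes in the files carry. Cd274 and Pdcd1lg2 share negative regulation of T cell proliferation (29 genes) and of interferon-gamma production (26 genes). Cd80 and Cd86 share the cellular response to lipopolysaccharide (137 genes), and Cd274 and Cd80 share T cell costimulation (31 genes).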

How the data were processed

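RNA was measured in 4 libraries, grouped by the genotype in the labels. The authors deposited FPKM values (called RPKM in the methods), 1 library per file. The submitters' processing notes name Bowtie2 2.2.3, TopHat2 2.0.12, HTSeq 0.6.0 and mm9, yet 92.61% of the deposited gene positions are identical to GENCODE M21 (GRCm38), so coordinates are given as deposited. Whether counting used strand is not given in the sources used here. Because the values are whole multiples of 1 read, library totals and the reads of 99.18% of genes were recovered (within 0.02 of a whole number), 91.29% from annotated lengths. At 1 kb, 1 read is worth 0.0450 to 0.0565 FPKM, and intervals cover counting error only. RefSeq held upstream sequences for 4 of the 5 genes.

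Groups were compared in R 4.3.3 by the lmFit and trended eBayes functions of limma 3.58.1 with no covariate. The fit used log2(FPKM + 1) of the 10779 genes whose mean reached 1 FPKM, and p-values were adjusted by Benjamini-Hochberg over all of them. Fold changes on this scale are understated for low genes. The fit was also run on simulated reads in which all genes had the same spread beyond counting error. That run does not show how the fit behaves for genes that vary within a group as Cd274 did. Tables and figures were made with Python 3.11.15 and matplotlib 3.10.9. Alternatives covered the pseudocount, the filter, scaling between libraries, untrended eBayes, a replicate block, voom on reads of genes that averaged 10 or more, and leaving out each library.

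Beside the 5 genes, the text names pathway genes past |log2FC| of 1 with an unadjusted p under 0.01, the 2 most abundant genes and the tested gene with the smallest p of each list, Cd28, Ctla4, Rgmb, Ptpn6, Ptpn11, Jak2, Irf1 and Lyz2, the 3 genes with the nearest pattern and genes within 100 kb. The genes, lists and tests were chosen with earlier results of these data known. A gene of this rule and a gene near Cd80 in pattern are not reported here. Cell type markers, sex-linked genes, Ifngr2, Havcr2 and Prdm1 were picked for naming after their values were seen.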

Additional observations from a re-analysis of the deposited data

How the results depend on the processing

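By the methods' threshold on fold and adjusted p, none of the 5 genes changed direction or was called under any alternative run, and the pathway count remained 0. The adjusted p of these genes over all alternatives ran from 0.0752 (Cd274, crossed pairing) to 0.973 (Cd86, without LysM-Cre replicate 2). With the value of Pdcd1lg2 taken from the fit without a minimum, leaving out 1 library gave log2 fold changes of -0.84 to -0.54 for Pdcd1, 1.14 to 3.34 for Cd274, 0.11 to 1.10 for Pdcd1lg2, 0.37 to 1.42 for Cd80 and 0.03 to 1.29 for Cd86. A pseudocount of 0.1 moved Cd274 to 3.10 and Pdcd1lg2 to 1.98, and voom on reads moved them to 3.16 and 3.40. Without LysM-Cre replicate 1, which leaves 1 library in that group, Cd80 was at 1.42 and Cd86 at 1.29. Cd274 (2.24) passed the threshold of the results with the crossed pairing described below, as did 298 genes in the higher direction. Among the runs with all 4 libraries, Cd80 had an unadjusted p under 0.05 with a pseudocount of 0.1, the replicate block or the crossed pairing. Cd86 did with the crossed pairing. In these 3 runs 1753, 1247 and 2255 of all 10779 genes did. The log2 difference of Pdcd1lg2 to Cd274 with 0.1 added to each FPKM was -1.12, and 0.92 without control replicate 2. Over the libraries left out, the differences ranged from 2.15 to 5.92 for Cd274 to Pdcd1, 1.12 to 4.11 for Cd274 to Cd86, 0.07 to 0.79 for Cd80 to Cd86 and -3.16 to 0.92 for Pdcd1lg2 to Cd274.

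The number of pathway genes past the threshold of the results was 2, and 1 without a filter and 1 without a trend, where Irf1 was lost. It ranged from 0 to 5 with each library left out. The number at an unadjusted p under 0.05 was 14, with 23 by voom on reads (62 genes tested) and 6 to 17 with each library left out. Over all genes 247 passed the threshold of the results, and 126 did with a minimum of 5 FPKM, where fewer genes were tested (5813). Those 247 were 203 higher and 44 lower, which became 146 and 65 under median-of-ratios scaling and 150 and 79 after quantile normalization. Some named genes with small differences changed sign. Btla was at -0.019 with a pseudocount of 0.1, -0.056 with median-of-ratios, -0.16 with quantile normalization, -0.019 with voom and -0.36 to 0.38 with each library left out. Vsir was at -0.040 with either scaling and -0.11 to 0.24 with each library left out. With quantile normalization Cmtm6 was at -0.030 and Tnfrsf18 at -0.025, and with each library left out Tnfrsf18 ranged from -0.10 to 0.37 and Tnfrsf14 from -1.23 to 0.64. The cause was not tested.

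The labels do not say whether libraries with the same replicate number are paired. Over the tested genes, the replicate 1 minus replicate 2 differences of the 2 groups correlated at -0.163. That value cannot show whether they are paired, since other differences between the samples enter it too. With the replicate number as a block, Pdcd1 was at -0.69 (adjusted p = 0.347), Cd274 at 2.24 (0.431), Pdcd1lg2 at 0.60 (0.677), Cd80 at 0.90 (0.399) and Cd86 at 0.66 (0.569). In that fit 11 of 50 pathway genes had an unadjusted p under 0.05, beside 1247 of all 10779 genes. A crossed pairing, chosen after seeing the data, gave 1 gene by the threshold of the methods, and 298 higher and 65 lower by that of the results. At an unadjusted p under 0.05 it gave 18 of 50 pathway genes, beside 2255 of all 10779 genes. With 2 libraries per group, depth limits Pdcd1lg2 above all, and a left-out library leaves a single library that is assumed to vary like the other group.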

Other observations

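A further pair of genes of the lists that fall outside the rule for named genes were singled out after their values were seen. Havcr2, which encodes the inhibitory receptor TIM-3, had 2.60 and 0.625 FPKM in the controls and 1.84 and 9.14 in LysM-Cre libraries, and its log2 fold change was 1.15 (unadjusted p = 0.143, limma). Like Cd274, it was lowest in control replicate 2 and highest in LysM-Cre replicate 2. Prdm1, which encodes the transcriptional repressor BLIMP-1, had 0.0242 and 0.0667 FPKM in the controls (3 and 7 reads) and 0.383 and 2.08 FPKM in LysM-Cre libraries (40 and 205 reads), and its mean lay below the minimum for the test.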
